A study of Mus musculus with 6 samples.

Results

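The 34 genes described here encode the secreted Wnt proteins and the receptors that receive them in mouse tail tendon. They were defined by symbol: every gene named *Wnt* or *Fzd* with a number (19 ligands and 10 Frizzleds), the co-receptors *Lrp5* and *Lrp6*, and the receptor kinases and pseudokinase *Ror1*, *Ror2* and *Ryk*, out of 44788 symbols in the count table. Tail tendons came from C57BL/6 mice labelled as 3 weeks old, either wild type (WT, 3 libraries) or homozygous for a knockout of *Mkx* (*Mkx*-/-, 3 libraries). Mohawk, the homeobox protein that *Mkx* encodes, is needed for normal tendon collagen, and the mutant mice are used as a model of heterotopic ossification, in which bone forms within tendons. Total RNA of the whole tissue was sequenced, so fewer cells of a type and less RNA per cell cannot be told apart. The labels do not say how the knockout allele was made or whether each library came from its own animal, and p-values therefore measure only the spread between these samples.

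Wnt proteins are lipid-modified ligands that act over short distances. In the canonical branch, a Wnt bridges a Frizzled, a seven-pass membrane receptor, to the co-receptor LRP5 or LRP6, the complex that degrades beta-catenin is shut down, and beta-catenin drives transcription with TCF/LEF factors. In the other branches, ligands such as WNT5A act through ROR or RYK receptors on cell polarity, movement and calcium. In the skeleton, canonical Wnt signalling favours bone formation, and Wnt signals also take part in tendon and joint development.

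The promoters of the 4 ligand or receptor genes that passed both thresholds of the comparison below are shown because these genes carry the differences between genotypes. Each covers 250 bases before and 50 bases after the RefSeq start site in GRCm38.p6, 5′ to 3′ on the gene's strand, and each had 1 exact match in mm9, the build of the data. In the annotation used for the gene positions below, *Wnt4* and *Wnt2* begin before that site, at 136833404 and 17980585. Part of the bases before the RefSeq site thus lies within these 2 annotated genes. Capitals mark matches to a TATA box with the letters TATAAA, to a CCAAT box with just those letters, to a GC box with the letters GGGCGG, and to TCF/LEF letters, which were CTTTGAA or CTTTGAT or CTTTGTA or CTTTGTT, each searched on both strands.
*Wnt16* (mm9 chr6:22237977-22238276, plus strand): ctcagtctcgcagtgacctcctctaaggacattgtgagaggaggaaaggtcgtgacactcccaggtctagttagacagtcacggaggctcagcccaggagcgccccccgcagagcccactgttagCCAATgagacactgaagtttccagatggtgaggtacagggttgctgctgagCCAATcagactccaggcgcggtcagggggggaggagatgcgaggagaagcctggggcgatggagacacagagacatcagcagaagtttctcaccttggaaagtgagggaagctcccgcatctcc
*Wnt4* (mm9 chr4:136833300-136833599, plus strand): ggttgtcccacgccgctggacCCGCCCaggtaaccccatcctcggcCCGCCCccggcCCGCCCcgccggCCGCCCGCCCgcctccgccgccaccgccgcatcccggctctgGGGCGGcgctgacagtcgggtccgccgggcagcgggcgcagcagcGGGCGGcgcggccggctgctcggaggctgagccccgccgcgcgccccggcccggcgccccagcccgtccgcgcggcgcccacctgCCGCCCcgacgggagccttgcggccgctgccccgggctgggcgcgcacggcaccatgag
*Wnt2* (mm9 chr6:17980396-17980695, minus strand): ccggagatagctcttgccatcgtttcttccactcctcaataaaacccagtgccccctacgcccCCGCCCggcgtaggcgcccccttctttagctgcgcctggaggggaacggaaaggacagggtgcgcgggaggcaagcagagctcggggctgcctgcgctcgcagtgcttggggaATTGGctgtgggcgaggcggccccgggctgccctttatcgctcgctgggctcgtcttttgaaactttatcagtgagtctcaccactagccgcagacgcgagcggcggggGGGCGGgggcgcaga
*Fzd1* (mm9 chr5:4758167-4758466, minus strand): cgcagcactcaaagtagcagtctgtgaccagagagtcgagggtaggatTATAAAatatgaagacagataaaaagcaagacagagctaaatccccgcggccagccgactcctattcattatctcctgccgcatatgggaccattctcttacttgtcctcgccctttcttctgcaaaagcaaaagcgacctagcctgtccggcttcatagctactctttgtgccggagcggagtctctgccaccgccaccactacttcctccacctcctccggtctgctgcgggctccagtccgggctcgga
The *Wnt16* promoter held 10 CpG dinucleotides, 2 CCAAT boxes and 0 GC boxes, whereas the *Wnt4* promoter held 51 CpG dinucleotides and 8 GC boxes, 1 pair of which overlapped. The *Wnt2* promoter had 27 CpG dinucleotides, 2 GC boxes and 1 CCAAT box. The *Fzd1* promoter had 16 CpG dinucleotides and a TATA-box match starting 202 bases before the start site. The median over all 32851 RefSeq promoters was 7 CpG dinucleotides. Of those promoters, 35.7% held a GC box, 37.4% a CCAAT box, 13.6% a TATA box and 16.9% a TCF/LEF match. RefSeq promoters were found for 24 of the 34 genes, 27 promoters in all, of which 22 held a GC box, 10 a CCAAT box, 3 a TATA box and 4 a TCF/LEF match. None of the 4 promoters printed above held a TCF/LEF match. These matches describe letters in the windows only.

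The libraries held 10835070 to 14160301 counts, so that the 3 counts used as a detection floor correspond to 0.211 to 0.294 CPM (counts relative to library size, scaled by TMM, which corrects for differences in RNA composition). *Mkx* itself was measured at 144, 136 and 135 CPM in WT and 56.8, 41.4 and 38.9 CPM in *Mkx*-/- libraries (edgeR quasi-likelihood test, log2 fold change -1.60 ± 0.16 SE, adjusted p = 0.00183), with reads on the gene remaining in the mutant. All 8 genes of a tendon marker list were detected in both genotypes, among them *Tnmd* (mean 1083 CPM in WT, 1065 in *Mkx*-/-), *Fmod* (16300 and 17564 CPM) and *Scx* (37.0 and 16.8 CPM). The summed level of that list, most of it *Col1a1* and *Col1a2*, was 377279 to 520819 CPM in WT and 240665 to 335329 CPM in *Mkx*-/-, with a median log2 fold change of -0.55. Beside *Mkx*, *Thbs4* was the one called, higher in *Mkx*-/- (4638 and 11147 CPM, edgeR adjusted p = 0.0118). WT replicate 3 was the only library with counts on the Y-linked *Ddx3y* (301 counts) and had 1 count of *Xist*, whereas the other 5 had 1289 to 1866 *Xist* counts. *Col1a1*, *Col1a2* and *Sparc* together took 42.0% to 48.5% of WT counts and 28.3% to 34.8% of *Mkx*-/- counts. With scaling by library size alone, the median log2 fold change of all tested genes was 0.25 instead of -0.0037. Summed levels of the markers of several other cell types also did not overlap between the genotypes. Over 19 skeletal muscle markers, the summed level was 101 to 419 CPM in WT and 596 to 2891 CPM in *Mkx*-/-. Over 7 Schwann cell markers it was 8115 to 10730 CPM against 12597 to 23372 CPM, and over 10 endothelial markers 66.8 to 85.6 CPM against 91.5 to 159 CPM. Over 10 macrophage and leukocyte markers it was 429 to 466 CPM in WT and 276 to 334 CPM in *Mkx*-/-. The sums were low for 8 keratinocyte markers (12.8 to 28.4 CPM in WT, 29.6 to 35.0 CPM in *Mkx*-/-) and 8 osteoblast markers (3.07 to 5.45 and 6.67 to 7.29 CPM). Those of 8 cartilage markers overlapped, at 540 to 1072 CPM in WT and 809 to 1317 CPM in *Mkx*-/-, but 3 of the 6 tested were called higher, namely *Acan* (32.0 and 147 CPM), *Matn3* (33.2 and 90.8 CPM) and *Ucma* (6.57 and 72.9 CPM). *Col2a1*, the most abundant of them, was the only tested cartilage marker with a negative log2 fold change (748 and 705 CPM, -0.08, edgeR adjusted p = 0.905). The sums of 6 adipocyte markers also overlapped, at 2.32 to 3.86 CPM and 2.38 to 4.22 CPM. Only 2 markers were at 0 in every library, the T cell gene *Cd3e* and the cartilage gene *Matn1*. The part of these cell types in the results below was not tested.

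To ask which Wnt ligands and receptors differ with *Mkx* genotype, the genotypes were compared over all 14550 genes with enough counts. Of the 34 genes, 23 were tested (9 ligands, 9 Frizzleds, *Lrp5*, *Lrp6*, *Ror1*, *Ror2* and *Ryk*). *Fzd1* and *Wnt2* were higher in *Mkx*-/- tendons and *Wnt16* and *Wnt4* lower, with an adjusted p under 0.05 and an absolute log2 fold change over 1 (edgeR quasi-likelihood test with Benjamini-Hochberg adjustment). These were 2 of 23 in each direction, against 1.89% of all tested genes higher and 1.33% lower. With the adjusted p alone, *Ror2* joined the higher genes and *Fzd9* the lower genes, giving 3 in each direction, against 3.18% and 2.26% of all tested genes. At an unadjusted p under 0.05, 6 were higher and 3 lower, against 12.5% and 10.1% of all tested genes. The libraries of the genotypes did not overlap for 8 genes that were higher in *Mkx*-/- and 4 that were lower, against 14.6% and 13.6% of all tested genes. The median log2 fold change of the 23 genes was -0.01, with 11 positive and 12 negative, and 49.5% of all tested genes were positive. With library size alone, 17 were positive and 6 negative, at a median of 0.24.

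**Figure D1:**
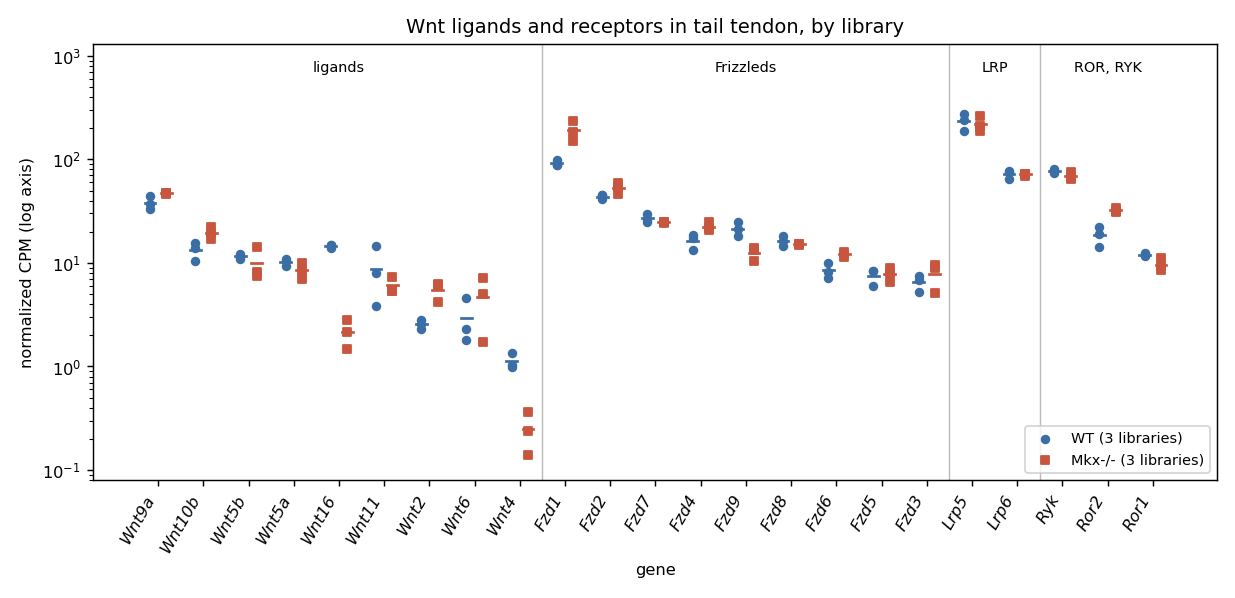
Normalized level (CPM, log axis) of the 23 tested Wnt ligand and receptor genes in each library, with blue circles for the 3 WT libraries, red squares for the 3 *Mkx*-/- libraries and short lines at the group means. *Wnt16* lay between 13.9 and 15.0 CPM in WT and between 1.47 and 2.81 CPM in *Mkx*-/-, and *Fzd1* was between 87.4 and 98.2 CPM in WT and between 152 and 236 CPM in *Mkx*-/-.

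Among the ligands, *Wnt16* showed the largest difference. WNT16 is a ligand best known for limiting the loss of cortical bone. Its gene (ENSMUSG00000029671.8, mm9 chr6:22238227-22250409, plus strand) was measured at 15.0, 13.9 and 14.7 CPM in WT and at 1.47, 2.81 and 2.14 CPM in *Mkx*-/- tendons. All 3 *Mkx*-/- libraries lay far below all 3 WT libraries. The level fell 6.70-fold (edgeR quasi-likelihood test, log2 fold change -2.74 ± 0.23 SE, 95% interval -3.27 to -2.22, adjusted p = 0.00107). The difference stayed past both thresholds whichever single library was left out, with log2 fold changes from -3.00 to -2.57 and adjusted p up to 0.0112 in edgeR. It rested on 142 to 191 counts per WT library and 16 to 40 per *Mkx*-/- library. The promoter of *Wnt16* was the one with 2 CCAAT boxes and no GC box above.

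*Wnt4*, whose product is known from kidney, female reproductive tract and bone, was near the floor of detection. Its gene (mm9 chr4:136833404-136855641, plus strand) had 17, 10 and 13 counts in WT and 4, 2 and 3 counts in *Mkx*-/-, or 1.34, 0.98 and 1.04 CPM against 0.37, 0.14 and 0.24 CPM. The groups did not overlap, although at most 17 reads supported any value. The fitted log2 fold change was -2.18 ± 0.46 SE (edgeR quasi-likelihood test, adjusted p = 0.0350). Whichever single library was left out, the edgeR adjusted p was over 0.05, from 0.0508 without *Mkx*-/- replicate 1 to 0.126 without *Mkx*-/- replicate 2, and it was 0.0774, 0.0962 and 0.106 without WT replicates 1, 2 and 3 and 0.119 without *Mkx*-/- replicate 3. In DESeq2 the adjusted p was 0.0577.

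*Wnt2* was the ligand that rose. WNT2 is a ligand known from lung and vascular development. Its gene (mm9 chr6:17938940-17980585, minus strand) was at 2.28, 2.55 and 2.80 CPM in WT and 4.21, 6.11 and 6.26 CPM in *Mkx*-/-. The lowest *Mkx*-/- library was above the highest WT library. The level was 2.17-fold higher (edgeR quasi-likelihood test, log2 fold change 1.12 ± 0.24 SE, 95% interval 0.57 to 1.67, adjusted p = 0.0353). It was again called without *Mkx*-/- replicate 1 (adjusted p = 0.0320). Without WT replicates 1, 2 and 3 the adjusted p was 0.0592, 0.106 and 0.0973, and without *Mkx*-/- replicates 2 and 3 it was 0.115 and 0.119, with log2 fold changes that stayed between 1.02 and 1.26.

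*Wnt10b*, which encodes a canonical ligand that favours bone over fat, was measured at 10.3, 15.4 and 14.02 CPM in WT and 19.2, 17.1 and 22.4 CPM in *Mkx*-/-. The groups did not overlap, but the difference did not pass the test (log2 fold change 0.57, 95% interval 0.15 to 0.98, edgeR adjusted p = 0.110). *Wnt9a*, a ligand that takes part in joint formation, was at 44.7, 32.9 and 36.7 CPM in WT and 47.2, 46.0 and 47.7 CPM in *Mkx*-/-. Its 3 *Mkx*-/- libraries lay close together and above the WT libraries, with a log2 fold change of 0.30 and a 95% interval from -0.01 to 0.62 (edgeR adjusted p = 0.242). *Wnt5b*, a ligand of the branches that do not use beta-catenin, was at 10.9, 11.5 and 12.3 CPM in WT and 14.4, 7.45 and 8.17 CPM in *Mkx*-/-. *Mkx*-/- replicate 1 was the highest of all 6 libraries and the other two *Mkx*-/- libraries the lowest, so that the log2 fold change of -0.21 had an interval from -0.78 to 0.36. It turned positive with library size alone, and was -0.59 without *Mkx*-/- replicate 1.

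The other 3 tested ligands overlapped between the genotypes. *Wnt5a*, the main ligand of ROR2 in development, averaged 10.2 ± 0.780 CPM in WT and 8.47 ± 1.52 in *Mkx*-/- (SD, n = 3 each; log2 fold change with a 95% interval from -0.67 to 0.14). *Wnt6* averaged 2.92 ± 1.49 and 4.67 ± 2.76 CPM. *Wnt11*, a polarity ligand, varied widely among WT libraries, at 14.4, 8.05 and 3.85 CPM, whereas the *Mkx*-/- libraries had 5.40, 7.38 and 5.39 CPM. Its log2 fold change had an interval from -1.48 to 0.42 and was 0.05 without WT replicate 1. Reads of *Wnt5a*, *Wnt5b* and *Wnt11* could include those of a gene annotated on the opposite strand (*Gm2670*, *Fbxl14* and *Gm8398*, respectively), since the strand setting of the counts was not given in the sources used here.

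The following 10 ligands had too few counts to be tested: *Wnt1*, *Wnt2b*, *Wnt3*, *Wnt3a*, *Wnt7a*, *Wnt7b*, *Wnt8a*, *Wnt8b*, *Wnt9b* and *Wnt10a*. *Wnt7a*, *Wnt8b* and *Wnt9b* had 0 counts in all 6 libraries, which allows a level of up to 0.211 to 0.294 CPM per library by counting error alone. *Wnt1* had 5, 6 and 9 counts in WT and 9, 5 and 11 counts in *Mkx*-/-, and *Wnt10a* had 1, 1 and 5 counts against 1, 3 and 10 counts. *Wnt3* was seen only in *Mkx*-/- replicates 1 and 3, with 3 counts and 1 count. Several of these genes sit next to a ligand that was well detected. The gene *Wnt9a* lies 16.2 kb from *Wnt3a*, which had 1 count in WT replicate 2, 2 counts in *Mkx*-/- replicate 3 and 0 elsewhere. The gene *Wnt10b* lies 11.7 kb from *Wnt1*, and *Wnt6* lies 6.2 kb from *Wnt10a*. In these 3 pairs, 1 member was tested and the other was not. The fourth pair, *Wnt3* and *Wnt9b*, 24.3 kb apart, was at or under 3 counts in every library.

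Levels were compared between genes per kilobase of exon. On that scale *Wnt9a* was the leading ligand in both genotypes, at 11.4 ± 1.82 CPM per kb in WT and 14.1 ± 0.261 in *Mkx*-/- (SD, n = 3). *Wnt10b* followed at 5.68 ± 1.13 and 8.39 ± 1.12 CPM per kb, and *Wnt5b* at 4.395 ± 0.264 and 3.81 ± 1.45 CPM per kb. In WT, *Wnt11* (2.41 ± 1.47) overlapped *Wnt16* (2.33 ± 0.0917), *Wnt6* (1.41 ± 0.721), *Wnt5a* (1.30 ± 0.0997) and *Wnt2* (1.13 ± 0.115). *Wnt6*, *Wnt5a* and *Wnt2* also overlapped each other, so that the order among overlapping genes is not resolved. In *Mkx*-/- tendons *Wnt16* was at 0.342 ± 0.108 CPM per kb and *Wnt2* at 2.45 ± 0.507, within the spread of *Wnt6* (2.26 ± 1.33). Within the summed ligand level, the share of *Wnt16* was 7.51%, 7.27% and 7.99% in WT and 0.687%, 1.36% and 0.928% in *Mkx*-/- tendons. Its means of 7.59% and 0.993% depended on the length used and became 12.2% and 1.68% with the longest transcript (3550 bp) in place of all exons (6247 bp). The share of *Wnt2* was 3.16%, 3.69% and 4.21% in WT and 5.47%, 8.21% and 7.52% in *Mkx*-/-. Neither pair of groups overlapped. The summed level of all ligands was 29.5 to 32.1 CPM per kb in WT and 33.0 to 36.9 CPM per kb in *Mkx*-/-. This separation depended on the scaling by length. Summed as CPM, the ligands overlapped between genotypes, at 99.3 to 111 CPM in WT and 101 to 109 CPM in *Mkx*-/-. Since 3 libraries against 3 allow an exact permutation p of no less than 0.1, shares and sums are given without a test.

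**Figure D2:**
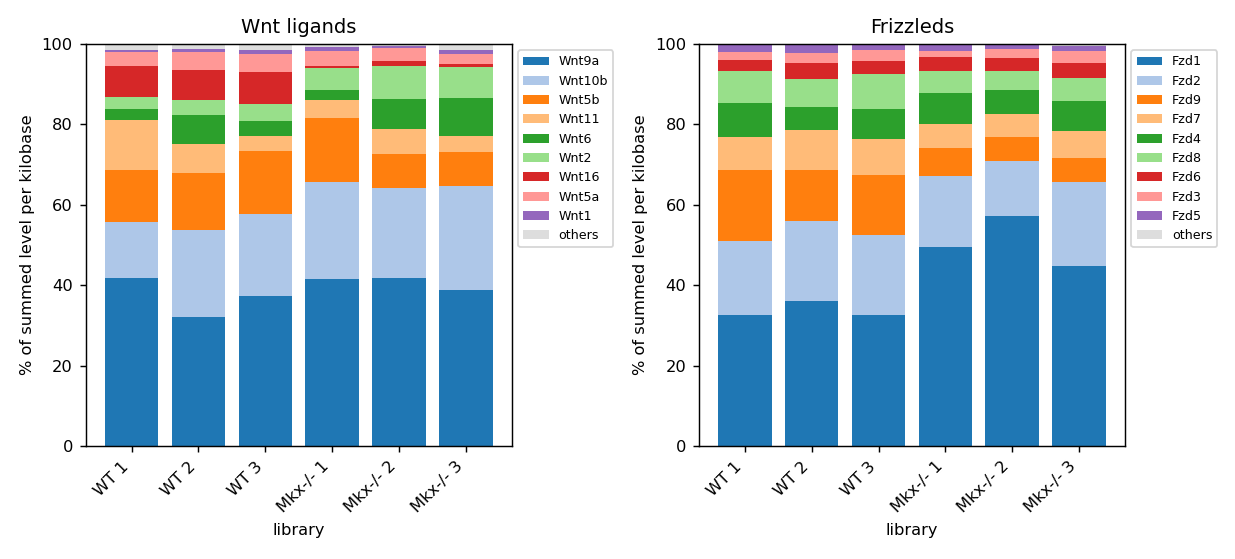
Share (%) of each gene in the summed level per kilobase of the Wnt ligands (left) and of the Frizzleds (right) in each of the 6 libraries. *Wnt9a* made up 32.2% to 41.9% of the ligand level in every library, and *Fzd1* made up 32.6% to 36.1% of the Frizzled level in WT and 44.7% to 57.3% in *Mkx*-/-.

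Among the Frizzleds, *Fzd1* rose and *Fzd9* was lower. FZD1 is a receptor for canonical Wnt ligands. Its gene has a single exon in the annotation used (mm9 chr5:4753842-4758216, minus strand) and was measured at 87.4, 98.2 and 88.8 CPM in WT and 186, 236 and 152 CPM in *Mkx*-/-. The lowest *Mkx*-/- library was well above the highest WT library. The level was 2.09-fold higher (edgeR quasi-likelihood test, log2 fold change 1.06 ± 0.17 SE, 95% interval 0.67 to 1.46, adjusted p = 0.0138, and 2.51e-06 in DESeq2). In edgeR the call was lost without WT replicate 2 (adjusted p = 0.0610), without WT replicate 3 (0.0728) and without *Mkx*-/- replicate 2, where the log2 fold change was 0.88 (adjusted p = 0.0358). *Fzd1* was the leading Frizzled per kilobase in both genotypes, at 20.9 ± 1.35 CPM per kb in WT and 43.7 ± 9.72 in *Mkx*-/-. Its share of the summed Frizzled level was 33.7% ± 2.04 in WT and 50.6% ± 6.35 in *Mkx*-/- (SD, n = 3). The summed Frizzled level was 61.3 to 62.3 CPM per kb in WT and 77.6 to 94.2 CPM per kb in *Mkx*-/-.

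*Fzd9*, which encodes a receptor expressed in osteoblasts and brain, was at 24.7, 18.1 and 21.3 CPM in WT and 13.8, 13.2 and 10.4 CPM in *Mkx*-/-. All *Mkx*-/- libraries were below all WT libraries. The difference passed the adjusted p but not the fold threshold (mm9 chr5:135724808-135727100, minus strand; log2 fold change -0.78 ± 0.17 SE, edgeR adjusted p = 0.0388). It did not pass whichever single library was left out, with edgeR adjusted p of 0.0572, 0.0634 and 0.111 without WT replicates 1, 2 and 3 and of 0.0593, 0.0959 and 0.119 without *Mkx*-/- replicates 1, 2 and 3. With library size alone the log2 fold change was -0.54 (edgeR adjusted p = 0.115). Per kilobase the gene was the third Frizzled in WT, at 9.31 ± 1.44 CPM per kb, and was at 5.44 ± 0.801 CPM per kb in *Mkx*-/-. Its *Mkx*-/- libraries overlapped those of *Fzd4* (6.06 ± 0.581) and *Fzd7* (5.15 ± 0.0881). Its share of the Frizzled level went from 15.0% ± 2.44 to 6.34% ± 0.638. Shares also depend on the summed level, which includes *Fzd1* and was higher in *Mkx*-/-. Those of *Fzd7* (9.08% and 6.05%) and *Fzd8* (7.84% and 5.33%) were lower too, although their CPM overlapped between genotypes.

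*Fzd6* and *Fzd4* had *Mkx*-/- libraries that were all above the WT libraries without passing the test. *Fzd6*, a receptor of planar cell polarity, was at 7.09, 10.01 and 8.25 CPM in WT and 12.6, 12.3 and 11.5 CPM in *Mkx*-/- (log2 fold change 0.53, 95% interval 0.14 to 0.91, edgeR adjusted p = 0.107). *Fzd4*, a receptor needed for retinal vessels, was at 18.8, 13.3 and 17.2 CPM in WT and 24.7, 20.7 and 21.6 CPM in *Mkx*-/- (log2 fold change 0.44, 95% interval 0.07 to 0.80, edgeR adjusted p = 0.147). *Fzd2*, the second Frizzled per kilobase, was at 41.0, 44.95 and 44.94 CPM in WT and 54.1, 46.2 and 59.1 CPM in *Mkx*-/-. The groups did not overlap, and the 95% interval of its log2 fold change of 0.28 ran from -0.01 to 0.58. *Fzd3*, *Fzd5*, *Fzd7* and *Fzd8* overlapped between genotypes, with intervals of -0.32 to 0.89, -0.41 to 0.53, -0.40 to 0.15 and -0.40 to 0.20, respectively. The values of *Fzd7* and *Fzd8* were negative, and positive with library size alone. *Fzd10* had 1, 4 and 1 counts in WT and 6, 4 and 18 counts in *Mkx*-/- and was not tested.

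**Figure D3:**
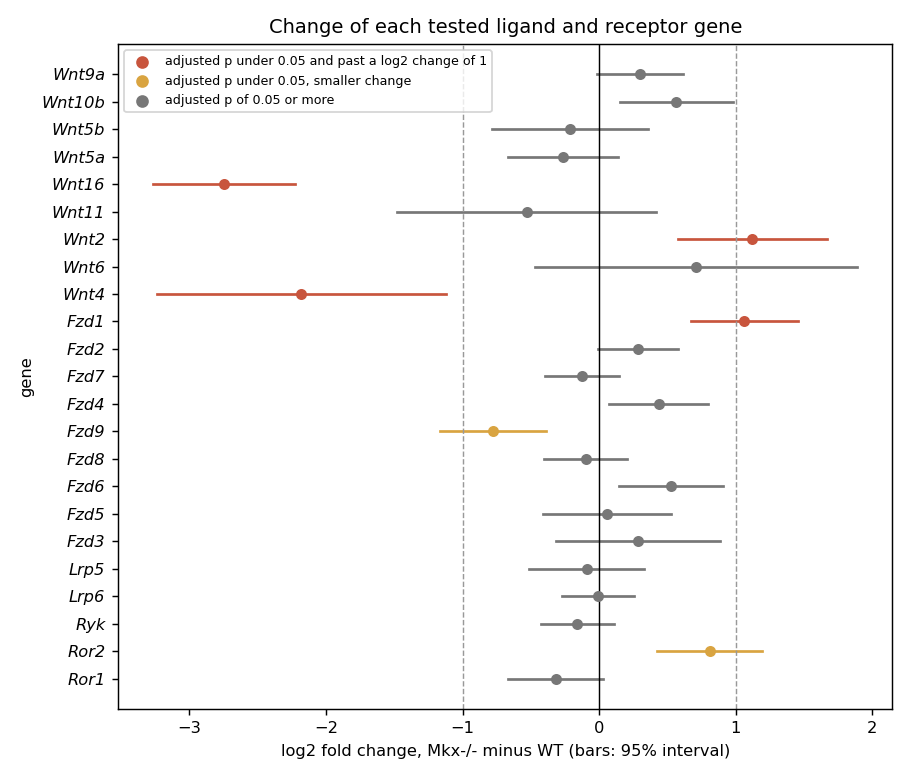
Log2 fold change (*Mkx*-/- minus WT) of the 23 tested genes, grouped by role, with horizontal bars for 95% intervals and dashed lines at a log2 change of 1 in either direction. *Wnt16* at -2.74, *Wnt4* at -2.18, *Fzd1* at 1.06 and *Wnt2* at 1.12 are red, and *Fzd9* at -0.78 and *Ror2* at 0.81 passed the adjusted p alone.

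The co-receptors of the canonical branch differed little. *Lrp5*, in which loss of function lowers bone mass, was measured at 187, 276 and 240 CPM in WT and 261, 211 and 187 CPM in *Mkx*-/-. *Lrp6*, its close relative, was measured at 75.0, 64.5 and 76.3 CPM in WT and 72.9, 69.4 and 72.1 CPM in *Mkx*-/-. Both overlapped fully. The log2 fold change was -0.09 for *Lrp5* (95% interval -0.52 to 0.33) and -0.01 for *Lrp6* (-0.28 to 0.25), so that a change of a full log2 unit lies outside both intervals. Both values were positive with library size alone. Per kilobase *Lrp5* was far above *Lrp6* in both genotypes, at 45.3 ± 8.73 against 7.32 ± 0.661 CPM per kb in WT.

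Of the receptors of the other branches, *Ror2* was higher in *Mkx*-/- tendons. ROR2 is a receptor for WNT5A that shapes cartilage and bone in development. Its gene (mm9 chr13:53204681-53381493, minus strand) was at 14.3, 22.3 and 18.8 CPM in WT and 34.3, 31.2 and 31.6 CPM in *Mkx*-/-. The *Mkx*-/- libraries were all above the WT libraries and closer together. The log2 fold change was 0.81 ± 0.17 SE, a 1.75-fold difference under the fold threshold (edgeR quasi-likelihood test, adjusted p = 0.0323). Without WT replicate 3 the adjusted p was 0.112, and without *Mkx*-/- replicates 1, 2 and 3 it was 0.0912, 0.0843 and 0.0873. With library size alone the log2 fold change was 1.07 (edgeR adjusted p = 0.00518), past both thresholds.

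*Ror1* was at 12.5, 11.7 and 11.9 CPM in WT and 9.34, 11.03 and 8.56 CPM in *Mkx*-/-. Its *Mkx*-/- libraries were all lower, but the difference did not pass the test (log2 fold change -0.32, 95% interval -0.66 to 0.03, edgeR adjusted p = 0.257), and the gene overlaps others on both strands. *Ryk*, a Wnt-binding pseudokinase, was at 77.8, 73.1 and 81.4 CPM in WT and 75.7, 68.0 and 64.4 CPM in *Mkx*-/-. The groups overlapped, and its log2 fold change had an interval from -0.43 to 0.11, negative here and positive with library size alone. Per kilobase, *Ryk* led this class at 23.7 ± 1.27 CPM per kb in WT and 21.2 ± 1.75 in *Mkx*-/-, followed by *Ror2* at 4.36 ± 0.939 and 7.62 ± 0.395.

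**Figure D4:**
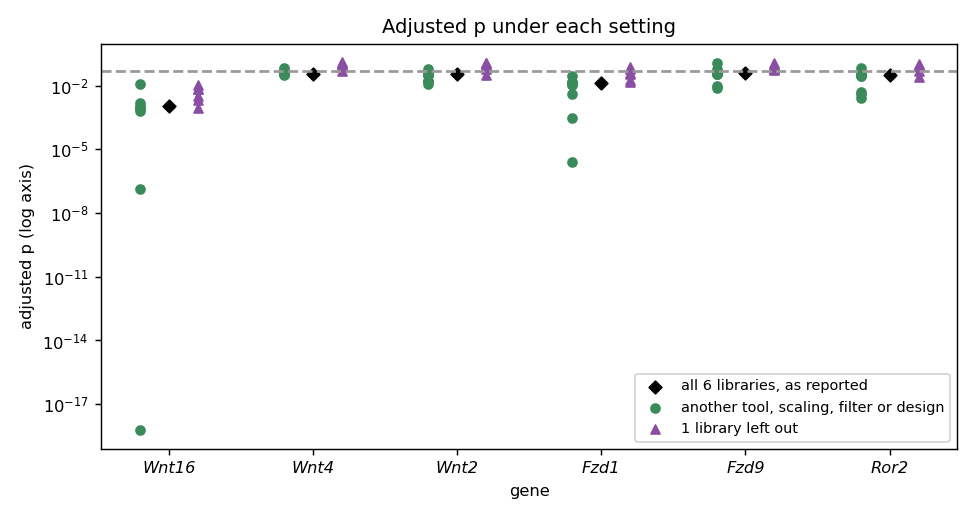
Adjusted p (log axis) of the 6 genes that passed an adjusted p under 0.05, with a black diamond for all 6 libraries, green circles for another tool, scaling, filter or design, purple triangles for 1 library left out, and a dashed line at 0.05. Every point of *Wnt16* lies under the line, with a highest value of 0.0123, whereas the other 5 genes each have points above it. For *Fzd1* these are only the fits without WT replicate 2 and without WT replicate 3.

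To place these genes in their pathway, 66 further Wnt pathway genes were counted by role, of which 53 were tested. Their lists were chosen with earlier results of these data known. In *Mkx*-/- tendons 4 of the 53 genes rose and 0 fell past both thresholds in edgeR, against 1.89% and 1.33% of all tested genes. DESeq2 called 6 higher, adding *Rspo1* and *Sfrp5*, and 0 lower. Over all genes it also called more, 386 higher and 274 lower, against 275 and 193 in edgeR. At an unadjusted p under 0.05, 12 were higher and 4 lower in edgeR, against 12.5% and 10.1% of all tested genes. The genes that rose were of the receptor turnover and antagonist lists.

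Among 5 tested genes of receptor turnover, *Lgr5* and *Lgr6*, which encode receptors for R-spondins and thereby keep Frizzleds at the cell surface, were higher. *Lgr5* was at 0, 0.589 and 0.801 CPM in WT and 14.7, 8.85 and 15.7 CPM in *Mkx*-/- (edgeR quasi-likelihood test, log2 fold change 4.81, adjusted p = 0.00364). *Lgr6* was at 0.709, 1.77 and 1.60 CPM in WT and 10.7, 5.83 and 9.35 CPM in *Mkx*-/- (log2 fold change 2.67, edgeR adjusted p = 0.00652). Both groups of libraries were wide apart, and both calls held whichever single library was left out. *Rspo1*, which encodes an R-spondin, was at 0.0788, 0.196 and 0.401 CPM in WT and 0.824, 0.913 and 2.30 CPM in *Mkx*-/- (edgeR adjusted p = 0.0678, and 0.0406 in DESeq2). In WT, *Rspo1* had 1, 2 and 5 counts and *Lgr5* 0, 6 and 10, so the size of both differences rests on few WT reads. *Znrf3*, a ubiquitin ligase that removes Frizzleds, averaged 6.11 ± 0.792 CPM in WT and 4.85 ± 0.431 in *Mkx*-/- (edgeR adjusted p = 0.341).

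Of 10 tested antagonists, 2 rose. *Sfrp4*, a secreted decoy that binds Wnt proteins, was at 3.31, 2.94 and 2.80 CPM in WT and 5.95, 8.36 and 10.7 CPM in *Mkx*-/- (edgeR quasi-likelihood test, log2 fold change 1.46, adjusted p = 0.0168). *Sostdc1*, a secreted inhibitor of BMP and Wnt signals, was at 6.07, 8.24 and 10.8 CPM in WT and 15.1, 18.5 and 28.5 CPM in *Mkx*-/- (log2 fold change 1.31, edgeR adjusted p = 0.0369). The groups did not overlap for either gene. Each call was lost without WT replicate 2, WT replicate 3, *Mkx*-/- replicate 2 or *Mkx*-/- replicate 3, with edgeR adjusted p of 0.0692, 0.0718, 0.0531 and 0.0505 for *Sfrp4* and of 0.118, 0.0611, 0.0801 and 0.0971 for *Sostdc1*. *Frzb* (1.31 ± 0.386 CPM in WT, 3.03 ± 1.18 in *Mkx*-/-, edgeR adjusted p = 0.109) and *Kremen1* (56.7 ± 13.3 and 82.0 ± 4.23 CPM, edgeR adjusted p = 0.107) did not pass. *Sfrp5*, another secreted decoy, named because the tools differ on it, was at 15.8, 29.9 and 25.6 CPM in WT and 28.5, 46.4 and 73.0 CPM in *Mkx*-/-. Its groups overlapped, and its log2 fold change of 1.06 did not pass in edgeR (adjusted p = 0.116) but did in DESeq2 (1.04, adjusted p = 0.0226).

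The secretion genes, the intracellular genes, the polarity genes and most feedback targets did not pass both thresholds. *Wls*, the carrier that brings Wnt proteins to the surface, was at 82.5, 88.1 and 86.4 CPM in WT and 122, 96.5 and 106 CPM in *Mkx*-/- (log2 fold change 0.34, edgeR adjusted p = 0.156), and *Porcn*, the enzyme that adds their lipid, averaged 11.2 ± 0.521 and 10.8 ± 2.64 CPM. Of 21 tested intracellular genes, *Tnks2*, a tankyrase that promotes Axin degradation, was lower by the adjusted p alone (68.2 ± 6.46 CPM in WT, 47.6 ± 2.90 in *Mkx*-/-, log2 fold change -0.52, edgeR adjusted p = 0.0469; 5 of the 6 fits with a library left out did not pass, at up to 0.159). *Tcf7l2*, a TCF factor, had 10.8 ± 0.877 and 15.7 ± 2.96 CPM (edgeR adjusted p = 0.112).

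Of 9 tested feedback targets, genes that canonical signalling itself tends to induce, *Lgr5* alone passed both thresholds in edgeR. *Myc* had 13.5 ± 3.19 CPM in WT and 8.47 ± 0.920 in *Mkx*-/- (edgeR adjusted p = 0.0977), and *Nkd2* had 33.8 ± 14.6 and 66.4 ± 7.63 CPM (edgeR adjusted p = 0.105). In DESeq2 *Nkd2* passed the adjusted p (0.0204) but not the fold threshold (log2 fold change 0.97). *Axin2*, a widely used target that was named after its values were seen, had 19.6 ± 1.78 CPM in WT and 20.05 ± 3.08 in *Mkx*-/- (log2 fold change 0.03, edgeR adjusted p = 0.926). Of 10 tested polarity genes, *Prickle2* had the smallest p, at 22.1 ± 4.38 CPM in WT and 16.0 ± 1.70 in *Mkx*-/- (edgeR adjusted p = 0.149).

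**Figure D5:**
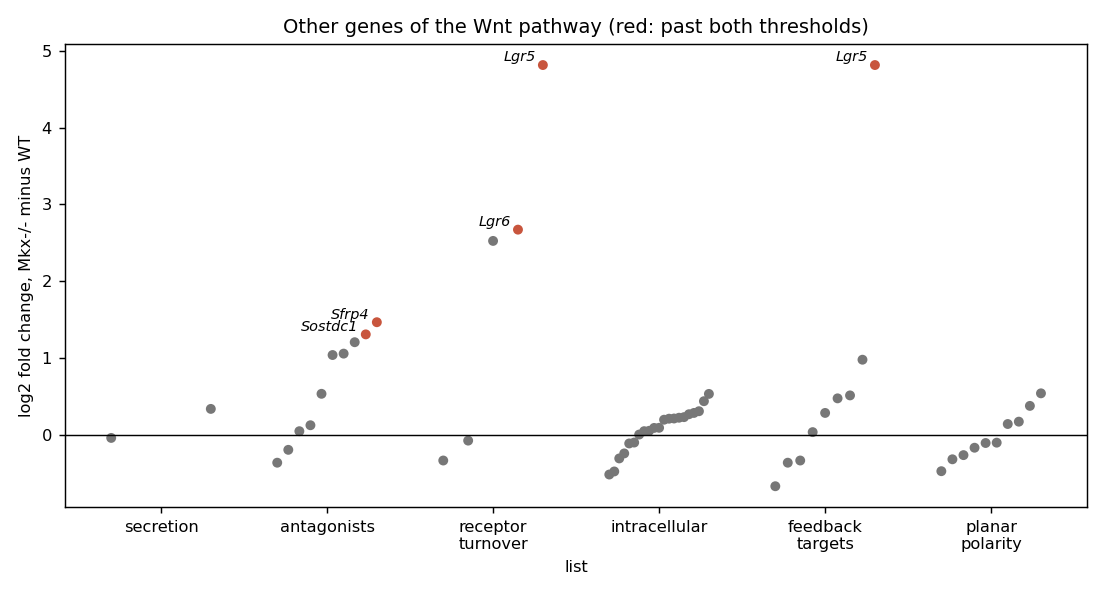
Log2 fold change (*Mkx*-/- minus WT) of each tested gene of 6 Wnt pathway lists, sorted within each list, with red points for genes past both thresholds. *Lgr5* at 4.81, which stands in 2 lists, and *Lgr6* at 2.67 lie above the other genes, and *Sfrp4* (1.46) and *Sostdc1* (1.31) lead the antagonists.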

How the data were processed

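Bulk RNA-seq of tail tendon in 3 WT and 3 *Mkx*-/- libraries was analysed. RNA was extracted with TRIzol, libraries were made with the Ion Total RNA-Seq kit and sequenced on the Ion Proton system. The authors trimmed the reads, aligned them to mm9 with MapSplice and deposited raw counts per gene symbol, not normalized. The counting program and its treatment of strand and multiply matching reads were not given in the sources used here. The labels give the age as 3 weeks, whereas the text of the paper gives another age. Of the sample columns in the table, 0 were left unused.

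From the deposited counts, CPM and log2 fold changes (prior count 0.125) came from edgeR 4.0.16 (R 4.3.3) with TMM scaling, filterByExpr, a quasi-likelihood fit on genotype and Benjamini-Hochberg adjustment over 14550 genes. Genes with an adjusted p under 0.05 and a fold change over 2 were called. DESeq2 1.42.0, other scalings, filters, a robust fit, a replicate block and each library left out were the alternatives. Both tools were tested on simulated counts. Lengths are exon unions of the GENCODE annotation of mm9.

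The genes and lists were chosen with earlier results of these data known. Per-library values are given for each of the 34 genes with an unadjusted p under 0.05 and for the 3 with the highest level per kilobase in each role. Of the other pathway genes, those called and up to 4 with the smallest p per list are named.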

Additional observations from a re-analysis of the deposited data

How the results depend on the processing

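Of the 6 genes under an adjusted p of 0.05, *Wnt16* alone passed both thresholds under every alternative run. The count of ligand and receptor genes called higher (2) was 0 to 2 with 1 library left out and that called lower (2) was 1 to 1. The latter was also 1 in DESeq2 and with at least 10 counts in every library, a filter that removes *Wnt4*. Without WT replicate 3, the library with Y-linked counts, 0 were higher and 1 lower. The same counts were found without WT replicate 2 and without *Mkx*-/- replicate 2, which had *Xist* counts. Of the other pathway genes, 4 were called higher, 2 to 4 with 1 library left out, 7 with library size alone, 6 in DESeq2 and with 1 count in any library (*Rspo1* and *Sfrp5* added), 3 with the replicate block and 2 with at least 10 counts in every library, and 0 were called lower under each alternative. Over all genes, 275 were higher and 193 lower. With 1 library left out these were 103 to 321 and 112 to 248. In DESeq2 386 were higher and 274 lower. With library size alone 711 were higher and 154 lower, and with 1 count in any library 541 were higher and 322 lower. With the longest transcript in place of all exons, the *Wnt16* share of the ligand level was 12.2% in WT and 1.68% in *Mkx*-/-. In none of these alternatives did a called gene change direction.

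Deviations of same-numbered WT and *Mkx*-/- libraries from their group means had r = -0.000308, -0.235 and 0.313 over genes. Differently numbered libraries reached r = 0.442 (WT replicate 1 with *Mkx*-/- replicate 2) and -0.399 (WT replicate 1 with *Mkx*-/- replicate 3). With 3 libraries per genotype these values depend on each other, so they cannot decide whether the numbers pair the samples. With the replicate number as a block, 1 gene was higher (*Fzd1*) and 1 lower (*Wnt16*). At this depth, genes under about 10 counts, *Wnt4* among them, carry a large counting error.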
